A study of Mus musculus with 24 samples.

Results

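Daily rhythms of mRNA were described in the eyes of mice kept under SC, a winter-like condition of short days and cool air. The members are the 12 SC eyes of a series of 24, picked out by their labels, with 2 eyes at each of 6 times, the first at 2 h after midnight and the others at steps of 4 h up to 22 h. They are set beside the 12 LW eyes, collected at the same times, only where a rhythm differed. All were whole eyes of male CBA/N mice that were 10 weeks old at the start and stayed 4 weeks in their condition. SC mice had 8 h of light and 16 h of darkness at 10 °C, and LW mice had 16 h of light and 8 h of darkness at 27 °C, so effects of photoperiod and temperature cannot be told apart. Under SC the lights were on at 10 and 14 h and off at 2, 6, 18 and 22 h, so that a rhythm driven by the light and a rhythm of the clock cannot be told apart either. Neither the labels nor the methods say whether both eyes of a time came from different mice, so each p-value below reflects only how much these particular eyes varied.

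The eye keeps its own circadian clock. In this clock CLOCK or NPAS2 pairs with BMAL1 (gene Arntl) and switches on the Period and Cryptochrome genes, whose proteins later shut the pair off. The same pair drives the REV-ERB receptors, which repress Arntl and compete with the ROR receptors that activate it, and the PAR bZIP factors DBP, TEF and HLF, which pass the rhythm to output genes. Light acts beside the clock: it hyperpolarizes photoreceptors, raises dopamine release from amacrine cells and, through the D4 receptor on photoreceptors, lowers their cyclic AMP. Rods and cones use much glucose in darkness, when their cation channels stay open. The eye also holds dividing cells, chiefly in the epithelium of the cornea and conjunctiva, next to the retina, lens, pigment epithelium, sclera and eye muscles.

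The SC libraries held between 20164885 and 28447184 expected counts (median 24449062), and the values below are scaled counts, which are expected counts set to a common library size of 24235995. Markers of the labelled tissue were high in every SC eye, with Sag, the rod arrestin, between 28980 and 63418 and Cryaa, a lens crystallin, between 304350 and 380000 scaled counts. Liver transcripts stood out in SC 6 h replicate 2 and, at a lower level, in SC 10 h replicate 2. The 19 liver genes that the eye itself hardly expresses summed to 4687 and 983.3 scaled counts in these eyes and to between 70.52 and 160.9 in the other 10 SC eyes, and all 19 were highest in the first of them. Skin transcripts were highest in the same eye, where 10 of 13 genes of cornified skin had their maximum and Krt1 reached 1193 scaled counts, against at most 59.3 elsewhere. Muscle transcripts were highest in SC 22 h replicate 2 for 14 of 22 genes. The counts over all genes below are therefore also given without these 2 eyes, together with calls of named genes that were lost without them, and the part of these tissues in other genes was not tested. In whole eyes, fewer cells of a type and less RNA per cell cannot be told apart.

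A cosine of 24 h was fitted for every gene to log2(scaled count + 1). Its amplitude is the distance from the mean to the crest on the log2 scale, so an amplitude of A gives a peak-to-trough ratio of 2 to the power of 2A, and its peak is the fitted time of the crest in hours after midnight. A gene is called rhythmic where limma's F test of the cosine gave a Benjamini-Hochberg adjusted p under 0.05. Errors after ± are standard errors of the fit to 12 eyes. Of 17879 genes tested, 1655 were called rhythmic, which is 9.26%, and 4145 had an unadjusted p under 0.05. Without the 2 eyes that held liver transcripts the share was 9.28% (1646 of 17730), and 1306 genes were called in both fits. A test of the 6 time means with no assumed shape called 10.1% (1812 genes), 1171 of them among the 1655, and 1486 genes without those 2 eyes. Amplitudes of called genes had a median of 0.20, beside 0.10 over all genes tested, which is a median peak-to-trough ratio of 1.32. Only 198 called genes had an amplitude of at least 0.5, and the median error of a called gene's peak was 0.80 h. The count depended most on 3 of the dark times. It was 932 genes when the eyes of 2 h were left out, 974 when those of 18 h were and 954 when those of 22 h were.

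Peaks were least frequent near 6 and 18 h, the dark times on either side of the lit ones. Of the genes tested, 314 (1.76%) were called with a peak nearest 2 h, 185 (1.03%) nearest 6 h, 307 (1.72%) nearest 10 h, 353 (1.97%) nearest 14 h, 180 (1.01%) nearest 18 h and 316 (1.77%) nearest 22 h. The 2 lit times took 660 of the 1655 genes and the 4 dark times 995. Among the 65 gene lists examined, the called members of some lay close together in the day and those of others were scattered. Called genes of mitosis peaked mostly after midnight, those of DNA replication mostly in the evening and those of glycolysis mostly around midnight. Called rod phototransduction genes, clock repressors, neuropeptides and targets of PPAR alpha had fitted peaks mostly nearest a lit time. Called genes of the ribbon synapse and photoreceptor transcription factors were spread over the day. Those of cone phototransduction all had fitted peaks nearest a dark time (2, 6 or 18 h), with Pde6c close to midway between 14 and 18 h. Genes of the cytosolic ribosome, complex I, the lens crystallins and muscle gave no called gene. Among genes with a mean scaled count of at least 100, 11.5% were called.

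**Figure D1:**
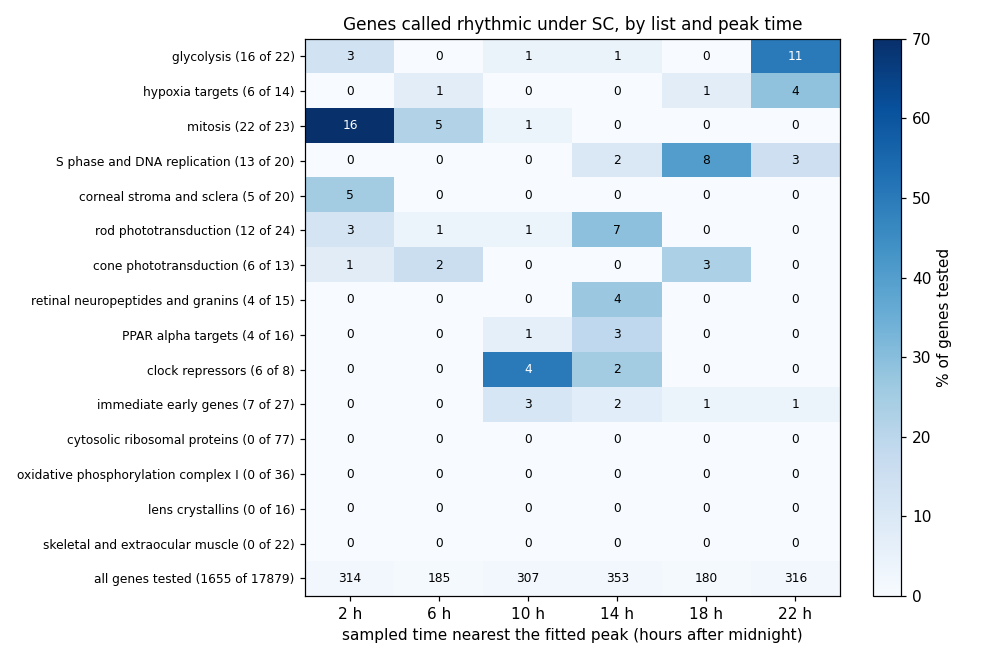
Numbers of genes called rhythmic under SC in 15 gene lists and over all genes tested (rows, called of tested in brackets), by the sampled time nearest the fitted peak (columns, hours after midnight), with the shade as the percentage of genes tested. Mitosis genes fill the columns of 2 and 6 h, glycolysis that of 22 h and rod phototransduction that of 14 h.

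Clock genes oscillated under SC with small amplitudes in the whole eye. Among 8 clock repressors 6 were called, all with a peak between 9.99 and 15.7 h, 4 of them also without the 2 eyes with liver transcripts and 3 without the eyes of 22 h. Per2, a Period gene of the negative limb, had scaled counts of 1044 and 997 at 2 h, 1378 and 1318 at 6 h, 1498 and 1658 at 10 h, 1572 and 1748 at 14 h, 1442 and 1370.1 at 18 h and 1130.2 and 1241 at 22 h. Both eyes of 14 h and both of 10 h lay above all eyes of the other times. Its amplitude was 0.33 ± 0.03, its peak 12.8 ± 0.40 h and its ratio of peak to trough 1.58 (adjusted p = 1.89e-05). Ciart, also called Chrono, a repressor of CLOCK and BMAL1, had 229 and 247 at 2 h, 398 and 348 at 6 h, 403 and 463 at 10 h, 373 and 351 at 14 h, 308 and 299 at 18 h and 209 and 188 at 22 h. It was lowest at 22 h and highest at 10 h, with the largest amplitude among the repressors, 0.53 ± 0.06, and a peak at 10.7 ± 0.41 h (adjusted p = 2.62e-05). Per3 peaked later, at 15.7 ± 0.66 h, with an amplitude of 0.12 ± 0.02 (adjusted p = 0.00265), and Bhlhe40, also called DEC1, a repressor that competes for the same sites, peaked at 9.99 ± 0.65 h with an amplitude of 0.16 ± 0.03 (adjusted p = 0.00247), a call that was lost at an adjusted p of 0.057 without the eyes of 22 h. Cry2 and Bhlhe41 were called at 0.0336 and 0.0428, but each lost the call without the 2 eyes with liver transcripts (adjusted p = 0.0527 and 0.105) and in 8 of the 12 fits that left out 1 eye. Cry1 was not called as a cosine, with an amplitude of 0.13 ± 0.04 and a peak at 11.7 ± 1.18 h (adjusted p = 0.106). Limma's test of the 6 time means did call Cry1 (adjusted p = 0.0255). Per1 was not called as a cosine either (adjusted p = 0.0934), and its values, high at a single time, are given with the departures from a cosine.

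The E-box CACGTG is the site that CLOCK and BMAL1 bind, and its letters were searched in RefSeq promoters (GRCm38.p6, 250 bases before to 50 after each start site), which 13983 of the 17879 genes tested had. The hexamer, which reads the same on both strands, stood in 10.4% of all genes tested, in 15.5% of called genes with a peak nearest 10 h and in 17.4% of those nearest 14 h. It stood in 12.7% of those nearest 18 h, 10.2% nearest 22 h, 9.31% nearest 2 h and 9.70% nearest 6 h. These shares are descriptions and were not tested. The other clock motifs were rare, with TTATGTAA or TTACGTAA, the D-box of DBP and TEF, in 1.02% of all genes tested and of called genes, and TAGGTCA, the element of ROR and REV-ERB, in 2.52% and 2.35%. All were counted on both strands. The promoter of Ciart is shown because it holds 3 E-boxes close together (capitals), and that of Tef because it holds 1.
Ciart, chr3:95882258-95882356 (- strand): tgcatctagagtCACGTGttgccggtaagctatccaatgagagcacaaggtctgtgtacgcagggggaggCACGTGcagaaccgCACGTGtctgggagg
Tef, chr15:81802534-81802563 (+ strand): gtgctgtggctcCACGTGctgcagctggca

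Receptors of the second loop and output factors gave an ordered series of peaks. Nr1d1, which encodes REV-ERB alpha, had 5734 and 5271 at 2 h, 6080 and 5651 at 6 h, 7392 and 6536 at 10 h, 5296 and 5148 at 14 h, 4507 and 4670 at 18 h and 4326 and 4411 at 22 h. It came first, highest at 10 h and lowest at 22 h, with a peak at 8.36 ± 0.46 h and an amplitude of 0.30 ± 0.04 (adjusted p = 0.000103). Dbp had 3038 and 3172 at 2 h, 4119.8 and 3781 at 6 h, 4122 and 4211 at 10 h, 4872 and 4411 at 14 h, 3619 and 3656 at 18 h and 2612 and 2973 at 22 h and peaked at 11.6 ± 0.42 h with an amplitude of 0.34 ± 0.04 (adjusted p = 4.58e-05). Tef, with an amplitude of 0.17 ± 0.02, peaked at 13.2 ± 0.49 h (adjusted p = 0.000146). The peaks of Per2 and Tef lay within their errors of each other, and that of Nr1d1 lay several standard errors before that of Dbp. On the opposite side of the day stood Rorb, the retinal ROR receptor, with a fitted peak at 22.6 ± 0.73 h and an amplitude of 0.35 ± 0.07 (adjusted p = 0.0209). Its shape departed from a cosine (adjusted p of the departure = 0.00374). It had 3527 and 3161 at 10 h, 4777 and 4614 at 14 h and between 5079 and 6106 at the dark times. The cosine call of Rorb was lost at an adjusted p of 0.0623 without SC 10 h replicate 1, 0.0663 without the eyes of 2 h, 0.0731 without the eyes of 18 h and 0.0891 without the eyes of 22 h. Npas2, a partner of BMAL1, had 299 and 237 at 2 h, 208 and 197 at 6 h, 156 and 119 at 10 h, 145 and 133 at 14 h, 159.7 and 152 at 18 h and 287 and 232 at 22 h. The 4 highest eyes were those of 2 and 22 h. Its amplitude was 0.55 ± 0.07, the largest among the activators, repressors, receptors and output factors of the clock tested, with a peak at 0.912 ± 0.49 h (adjusted p = 0.000141). Clock, Arntl, Arntl2, Nr1d2, Rora, Hlf and Nfil3 were not called, with amplitudes between 0.05 and 0.18 and adjusted p between 0.106 and 0.57. Without the 2 eyes with liver transcripts, however, the cosinor called Rora (amplitude 0.17, adjusted p = 0.0256) and Nfil3 (0.24, adjusted p = 0.0396). Limma's test of the 6 time means called Arntl (adjusted p = 0.0316). Arntl had 1896 and 1949.6 at 2 h, 1588 and 1732 at 6 h, 1959 and 1850.4 at 10 h, 1601 and 1547 at 14 h, 1658 and 1794 at 18 h and 1867 and 1742 at 22 h, with an amplitude of 0.07 ± 0.04 (adjusted p = 0.455).

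**Figure D2:**
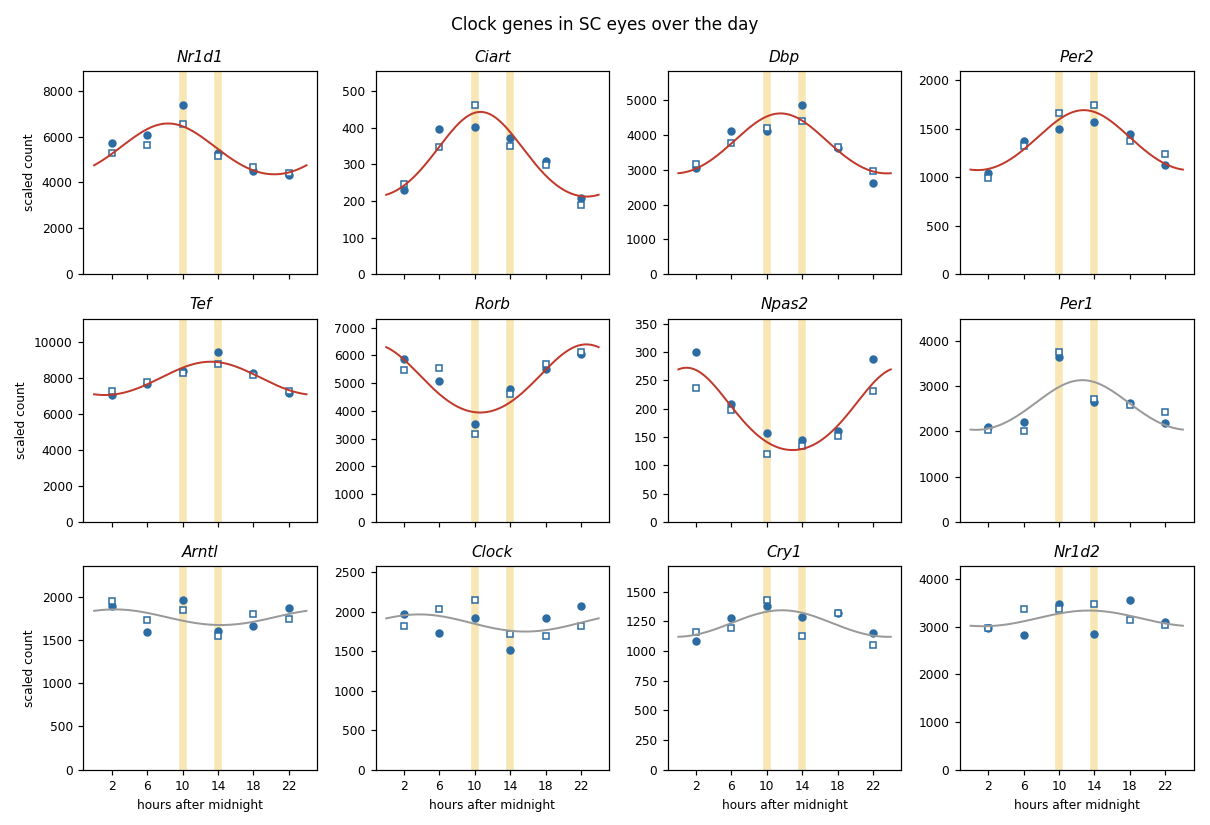
Scaled counts (vertical axis, starting at 0) of 12 clock genes against the hour after midnight in the 12 SC eyes. Filled circles are replicate 1, open squares replicate 2, yellow bars the lit times, and lines the fitted cosine, red where called and grey where not. Nr1d1 crests before Per2 and Tef, the fitted cosines of Rorb and Npas2 crest at night, Rorb is lowest at 10 h, and Per1 stands high at 10 h alone.

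Dopamine and cyclic AMP genes of photoreceptors had some of the strongest rhythms. Drd4, the D4 dopamine receptor of photoreceptors, had 6099.7 and 6348 at 2 h, 3889.8 and 4443 at 6 h, 2107 and 2042 at 10 h, 1948 and 2034 at 14 h, 4415 and 4984 at 18 h and 6385 and 6674 at 22 h. Every eye of 22 and 2 h lay above every eye of the other times, and the 4 eyes of the lit times were the lowest. Its amplitude was 0.95 ± 0.07, a ratio of 3.75 between peak and trough, with the peak at 23.8 ± 0.27 h (adjusted p = 3.70e-05). Gnaz, a G protein subunit that couples to inhibition of adenylyl cyclase, peaked at 22.8 ± 0.29 h with an amplitude of 0.46 ± 0.04 (adjusted p = 4.13e-07). Pde8a, a phosphodiesterase that breaks down cyclic AMP, peaked at 0.799 ± 0.38 h with 0.39 ± 0.04 (adjusted p = 1.02e-05). Adcy1, the calmodulin-stimulated adenylyl cyclase, ran the other way and had 6374 and 6194 at 2 h, 6546 and 6382 at 6 h, 9839 and 10352 at 10 h, 11611 and 11670 at 14 h, 12372 and 12540 at 18 h and 6108 and 6238 at 22 h. All eyes of 10, 14 and 18 h exceeded all others, with a peak at 14.5 ± 0.44 h and an amplitude of 0.58 ± 0.07 (adjusted p = 0.00102). Rgs20, a regulator of Gz signalling, peaked at 14.2 ± 0.36 h with 0.79 ± 0.07 (adjusted p = 8.54e-05). Of 16 genes of cyclic AMP signalling 5 were called, and of 5 dopamine receptors 2, the other being Drd2 (adjusted p = 0.0325), which lost its call without the 2 eyes with liver transcripts (adjusted p = 0.0962) and without any 1 of SC 10 h replicates 1 and 2 and SC 18 h replicates 1 and 2. None of 11 genes of dopamine synthesis and handling was called by limma's cosinor or by limma voom, and 2 had an unadjusted p under 0.05. Th, the rate-limiting enzyme of dopamine synthesis, had 73.0 and 57.9 at 2 h, 65.4 and 64.9 at 6 h, 63.0 and 69.7 at 10 h, 58.3 and 67.7 at 14 h, 63.5 and 81.4 at 18 h and 56.1 and 73.0 at 22 h, with an amplitude of 0.03 ± 0.09 (adjusted p = 0.975). None of 6 melatonin genes and none of 5 nonvisual opsins was called either, by the same tools or at an unadjusted p under 0.05. Over all genes tested 9.26% were called, so lists of 5, 6 or 11 genes can give none. The median amplitude was 0.31 for the melatonin genes and 0.13 for the nonvisual opsins, beside 0.10 over all genes tested. The lack of a call there does not show flat values.

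Rod phototransduction genes split into a large lit-time group and a smaller midnight group. Of 24 genes 12 were called, 11 of them also without the 2 eyes with liver transcripts, 7 with a peak nearest 14 h, 3 nearest 2 h, 1 nearest 6 h and 1 nearest 10 h. In the lit-time group Sag, the rod arrestin, had 33360 and 33292 at 2 h, 34351 and 32916 at 6 h, 54342 and 52600 at 10 h, 62693 and 63418 at 14 h, 56339 and 60030 at 18 h and 29730 and 28980 at 22 h. Its counts at 10, 14 and 18 h were all above those at 22, 2 and 6 h, with an amplitude of 0.58 ± 0.07 and a peak at 13.9 ± 0.46 h (adjusted p = 0.0016). Guca1b, a guanylate cyclase activator of the recovery phase, had 12917 and 13067 at 2 h, 16518 and 14878 at 6 h, 26127 and 25990 at 10 h, 26585 and 24044 at 14 h, 21135 and 22742 at 18 h and 11535 and 11754 at 22 h. The 4 highest eyes were those of the lit times, with an amplitude of 0.63 ± 0.06 and a peak at 12.8 ± 0.34 h (adjusted p = 0.000104). Its neighbour in function Guca1a peaked at 12.5 ± 0.42 h with 0.50 ± 0.05 (adjusted p = 0.000442), and Gucy2e, the cyclase itself, at 13.3 ± 0.50 h with 0.18 ± 0.02 (adjusted p = 0.000179). Pde6b, the beta subunit of the rod phosphodiesterase, peaked at 14.2 ± 0.36 h with 0.31 ± 0.03 (adjusted p = 4.65e-06). In the midnight group Rcvrn, recoverin, which restrains the kinase that shuts off the visual pigment, had 18570 and 17854 at 2 h, 15045 and 14206 at 6 h, 12494 and 12841 at 10 h, 13056 and 11960 at 14 h, 12102 and 15223 at 18 h and 17722 and 17105 at 22 h. All eyes of 22 and 2 h exceeded all others, with an amplitude of 0.29 ± 0.03 and a peak at 0.651 ± 0.45 h (adjusted p = 9.32e-05). Among the 12 genes not called were Gnat1, the rod transducin alpha subunit, and Prph2 and Rom1, which shape the outer segment discs.

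**Figure D3:**
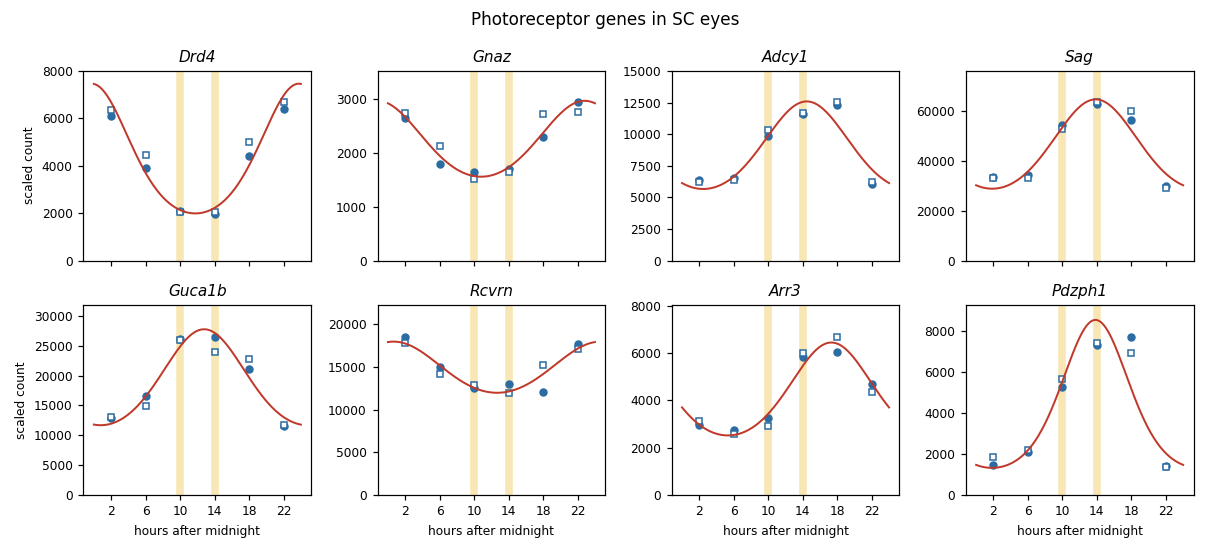
Scaled counts (vertical axis, starting at 0) of 8 photoreceptor genes against the hour after midnight in the 12 SC eyes, with symbols, lit times and cosine lines as in the plot of clock genes. Drd4, Gnaz and Rcvrn are high around midnight, while Adcy1, Sag, Guca1b and Pdzph1 are high from 10 to 18 h and Arr3 at 14 and 18 h.

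Fitted peaks of called cone genes all lay nearest a dark time, that of Pde6c only just, and those of the photoreceptor synapse were spread over the day. Of 13 cone genes 6 were called (46.2%, beside 9.26% of all genes tested), in all 12 eyes and without the 2 eyes with liver transcripts. Of the 6, 1 had a peak nearest 2 h, 2 nearest 6 h and 3 nearest 18 h. Arr3, the cone arrestin, had 2939.8 and 3119 at 2 h, 2760.4 and 2589.6 at 6 h, 3256 and 2930.5 at 10 h, 5828 and 6025 at 14 h, 6038 and 6705 at 18 h and 4698 and 4335 at 22 h. It stood high at 14 and 18 h, with an amplitude of 0.68 ± 0.04 and a peak at 17.3 ± 0.24 h (adjusted p = 4.13e-07). Pde6c, the cone phosphodiesterase, peaked at 16.1 ± 0.51 h with 0.31 ± 0.04 (adjusted p = 0.000214), within its error of the midpoint between 14 and 18 h. The highest eyes of Pde6c were the lit ones of 14 h, with 952 and 889, against 757 and 835 at 18 h. Opn1sw, the short-wave opsin, peaked at 4.54 ± 0.45 h with 0.25 ± 0.03 (adjusted p = 6.42e-05). Opn1mw, the middle-wave opsin, was not called, with an amplitude of 0.03 ± 0.05 (adjusted p = 0.896). Of 14 genes of the ribbon synapse 6 were called (42.9%), 3 of them nearest 14 h. This count was 3 without SC 10 h replicate 1 and 3 without SC 22 h replicate 2. Rims2, a scaffold of the active zone, peaked at 14.3 ± 0.36 h with 0.57 ± 0.05 (adjusted p = 9.51e-05), while Cacna2d4, a calcium channel subunit, peaked at 1.33 ± 0.58 h with 0.16 ± 0.03 (adjusted p = 0.000854). In the visual cycle, which rebuilds the chromophore, 3 of 16 genes were called (18.8%). They were Rdh12 at 12.6 ± 0.58 h, Lrat at 15.3 ± 0.69 h and Rpe65, the isomerase of the pigment epithelium, at 5.26 ± 0.64 h. Their amplitudes were 0.24 ± 0.04, 0.20 ± 0.04 and 0.20 ± 0.03 (adjusted p = 0.00102, 0.00358 and 0.00212). The call of Rpe65 was lost in 1 fit of all 24 eyes (adjusted p = 0.1).

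The genes with the largest amplitudes, among those called in both fits with a mean scaled count of at least 100, were led by Pdzph1. This gene, named for its PDZ and PH domains, had 1457 and 1849 at 2 h, 2073 and 2168 at 6 h, 5270 and 5658 at 10 h, 7321 and 7395 at 14 h, 7728 and 6902 at 18 h and 1399 and 1350.1 at 22 h. It was high from 10 to 18 h and low from 22 to 6 h, with an amplitude of 1.35 ± 0.17, a ratio of 6.51 and a peak at 13.8 ± 0.47 h (adjusted p = 0.00261). 5430419D17Rik followed with 1.07 ± 0.08 at 18.5 ± 0.30 h (adjusted p = 4.13e-07) and Glmn, glomulin, a binder of cullin-RING ligases, with 1.05 ± 0.06 at 12.4 ± 0.23 h (adjusted p = 4.13e-07). Glmn had 422 and 462 at 2 h, 683 and 676 at 6 h, 1402 and 1637 at 10 h, 1374 and 1408 at 14 h, 1059 and 898 at 18 h and 370.5 and 407 at 22 h, so that all eyes of 10, 14 and 18 h exceeded all others. Klkb1, plasma prekallikrein, peaked at 23.8 ± 0.30 h with 1.02 ± 0.08 (adjusted p = 4.13e-07), and Insl5, a relaxin-family peptide, at 0.670 ± 0.40 h with 1.002 ± 0.11 (adjusted p = 1.86e-05). Klkb1 had 173 and 188 at 2 h, 93.2 and 125 at 6 h, 51.8 and 54.4 at 10 h, 59.3 and 54.2 at 14 h, 125 and 102 at 18 h and 184 and 208 at 22 h, lowest at the lit times. It is chiefly a liver gene, and neither of the 2 eyes with liver transcripts was its highest. BC027072 peaked at 10.7 ± 0.38 h with 0.73 ± 0.07 (adjusted p = 0.000498), and Pcdh15, a cadherin of photoreceptors and hair cells just outside the first 20, at 19.1 ± 0.49 h with 0.72 ± 0.09 (adjusted p = 0.00251). Of the 20 genes of this ranking 6 were members of the mitosis list.

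Fitted peaks of called neuropeptide genes lay nearest a lit time, as did those of most called activity genes. Of 15 genes of retinal neuropeptides and granins 4 were called (26.7%, beside 9.26% of all genes tested), all nearest 14 h. Vgf, an activity-dependent neuropeptide precursor, had 229 and 204 at 2 h, 291 and 237 at 6 h, 506 and 522 at 10 h, 662 and 639 at 14 h, 489 and 581 at 18 h and 265 and 295 at 22 h. The eyes of 10, 14 and 18 h were all above those of the other times, with an amplitude of 0.85 ± 0.05 and a peak at 14.2 ± 0.23 h (adjusted p = 3.72e-08). Vip, vasoactive intestinal peptide of amacrine cells, peaked at 15.5 ± 0.66 h with 0.49 ± 0.09 (adjusted p = 0.00269), a call that was lost at an adjusted p of 0.0598 without the eyes of 2 h. Vip was about as high at 18 h, in the dark (127 and 137), as at 14 h (118 and 137). The same held for Scg2, another of the 4, with 4961 and 5134 at 18 h and 4378 and 5185 at 14 h. Of 27 immediate early genes, which neurons switch on within minutes of activity, 7 were called (25.9%). This count was 4 without SC 10 h replicate 1, and with whole times left out it was 4 (2 h), 12 (14 h), 3 (18 h) and 3 (22 h). Npas4, the activity factor most specific to neurons, had 100.2 and 119 at 2 h, 133 and 95.6 at 6 h, 257 and 329 at 10 h, 206 and 179 at 14 h, 139 and 184 at 18 h and 103 and 90.1 at 22 h. Both eyes of 10 h exceeded the rest, with an amplitude of 0.69 ± 0.12 and a peak at 12.2 ± 0.65 h (adjusted p = 0.00363), a call that was lost at an adjusted p of 0.0507 without the eyes of 22 h. Egr3 had 6.00 and 6.43 at 2 h, 24.8 and 24.8 at 6 h, 83.3 and 88.6 at 10 h, 18.8 and 18.4 at 14 h, 10.9 and 10.3 at 18 h and 14.4 and 13.4 at 22 h. It too stood highest at 10 h, with an amplitude of 1.28 ± 0.26 (adjusted p = 0.0117), a call that was lost without the 2 eyes with liver transcripts (adjusted p = 0.0536) and at an adjusted p of 0.0534 without SC 10 h replicate 1, 0.236 without the eyes of 10 h and 0.0568 without the eyes of 18 h. Of 14 glucocorticoid response genes 4 were called (28.6%), and 7 without the eyes of 10 h. Tsc22d3, also called GILZ, peaked at 15.3 ± 0.47 h with 0.30 ± 0.04 (adjusted p = 8.54e-05), and Cdkn1a, a cell cycle inhibitor in the same list, at 5.87 ± 0.46 h with 0.38 ± 0.05 (adjusted p = 7.31e-05).

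Mitosis had the largest share of called genes among the 65 lists. Of 23 mitosis genes 22 were called, 95.7% beside 9.26% of all genes tested, and between 21 and 22 were called whichever single eye was left out. Their median amplitude was 0.67, and 16 peaked nearest 2 h, 5 nearest 6 h and 1 nearest 10 h, with a mean peak at 3.17 h. Of 20 genes of S phase and DNA replication 13 were called, with a median amplitude of 0.38 and a mean peak at 18.4 h. This count was 15 without the 2 eyes with liver transcripts, 8 without either single eye of 18 h, 8 when the eyes of 2 h were left out and 7 when both of 18 h were. Mcm6, a subunit of the replicative helicase, had 586 and 626 at 2 h, 636 and 574 at 6 h, 574 and 538 at 10 h, 941 and 1027 at 14 h, 1050.5 and 981 at 18 h and 839 and 753 at 22 h. Both eyes of 14, 18 and 22 h lay above the others, with an amplitude of 0.45 ± 0.06 and a peak at 17.6 ± 0.48 h (adjusted p = 0.000212). Uhrf1, which maintains DNA methylation at the fork, peaked at 17.3 ± 0.61 h with 0.46 ± 0.07 (adjusted p = 0.002), and Rrm1, the large subunit of ribonucleotide reductase, at 21.8 ± 0.63 h with 0.18 ± 0.03 (adjusted p = 0.00171). Top2a, topoisomerase II of G2 and mitosis, had 832 and 928 at 2 h, 651 and 611 at 6 h, 329.6 and 325 at 10 h, 327 and 340.5 at 14 h, 599 and 437 at 18 h and 742 and 689 at 22 h. Both eyes of 2 h were the highest and all 4 eyes of the lit times the lowest, with an amplitude of 0.74 ± 0.06 and a peak at 0.754 ± 0.29 h (adjusted p = 4.13e-07). Mki67, the proliferation marker, followed at 2.11 ± 0.33 h with 0.70 ± 0.06 (adjusted p = 4.38e-06).

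Within mitosis the peaks were spread over several hours. Cenpf, a kinetochore protein, peaked at 3.76 ± 0.34 h, Plk1, the mitotic kinase, at 4.04 ± 0.47 h, Ube2c, the ubiquitin carrier of the anaphase-promoting complex, at 4.37 ± 0.44 h and Ccnb1, cyclin B1, at 4.74 ± 0.46 h. Cdc20, the activator of that complex, had 234 and 248 at 2 h, 283 and 276 at 6 h, 214 and 202 at 10 h, 158 and 108 at 14 h, 109 and 87.0 at 18 h and 142 and 145 at 22 h and peaked at 5.49 ± 0.36 h. The amplitudes of these genes were 0.82 ± 0.07, 0.72 ± 0.09, 0.83 ± 0.10, 0.81 ± 0.10 and 0.74 ± 0.07, and their adjusted p 3.06e-06, 8.54e-05, 4.72e-05, 7.31e-05 and 4.65e-06. Cdc20 and Top2a lay apart by far more than their errors, whereas Plk1, Ube2c and Ccnb1 did not differ beyond theirs. Bub1 was the list member not called, with 56.0 and 82.5 at 2 h, 58.5 and 89.7 at 6 h, 60.8 and 33.1 at 10 h, 55.5 and 51.3 at 14 h, 45.6 and 46.8 at 18 h and 85.8 and 96.2 at 22 h (amplitude 0.40 ± 0.14, adjusted p = 0.154). Among G1 cyclins Ccnd1 peaked at 13.1 ± 0.38 h with 0.27 ± 0.03 and Ccnd2 at 11.03 ± 0.47 h with 0.28 ± 0.03 (adjusted p = 8.45e-06 and 9.15e-05), before the called genes of replication. The cyclin gene Ccne1 was not called, in the main fit or under any of 28 other settings. Its adjusted p lay between 0.459 and 0.97 in the fits that left out 1 eye. Wee1, a mitotic brake that the clock controls in mouse liver, was not called, with an amplitude of 0.14 ± 0.07 (adjusted p = 0.403).

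**Figure D4:**
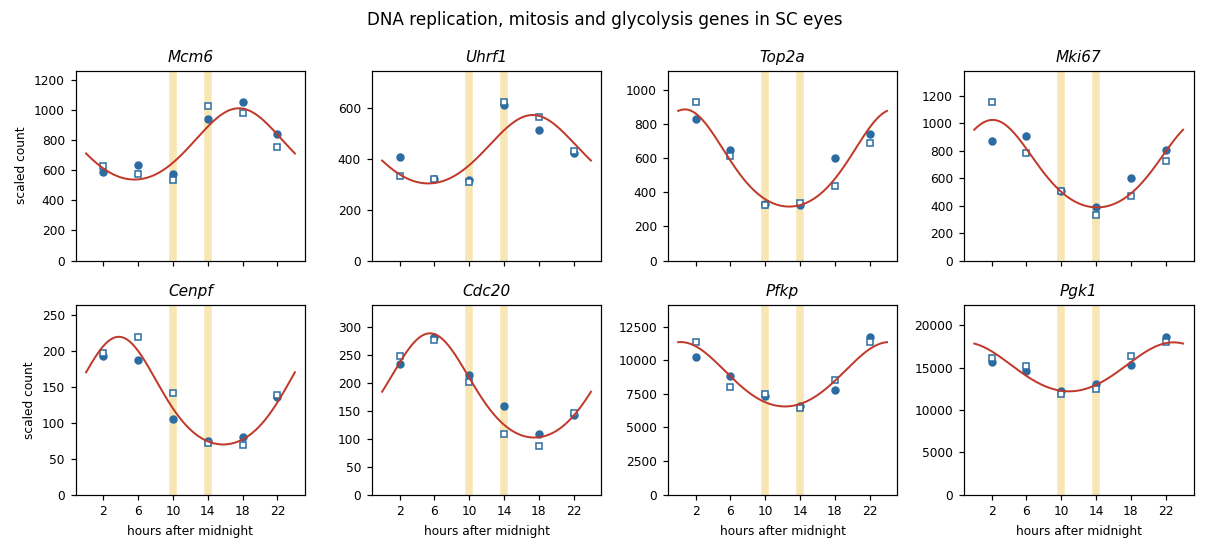
Scaled counts (vertical axis, starting at 0) of 8 genes of DNA replication, mitosis and glycolysis against the hour after midnight in the 12 SC eyes, with symbols, lit times and cosine lines as in the plot of clock genes. Mcm6 and Uhrf1 crest near 18 h, Top2a and Mki67 after midnight, Cenpf and Cdc20 later still, and Pfkp and Pgk1 around midnight.

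The promoters of the cell cycle genes are shown for the letters they share, in motifs chosen after the peaks were known. CCAAT, the box of the factor NF-Y, stood on either strand in 89.5% of the 19 mitosis genes with a promoter and in 12 of the 16 replication genes, beside 42.4% of all genes tested. TTTGAA, the core of the cell cycle homology region bound by the DREAM and MuvB complexes, stood in 73.7% of the mitosis genes and 12.5% of the replication genes, beside 15.4%. In called genes it stood in 28.7% of those with a peak nearest 2 h, 22.4% nearest 6 h, 13.4% nearest 10 h, 12.3% nearest 14 h, 16.4% nearest 18 h and 16.7% nearest 22 h. TTTCCCGC or TTTGGCGC, the site of E2F factors, stood in 43.8% of the replication genes, beside 2.84% of all genes tested, and in 10.4% of called genes nearest 18 h. CCAAT and TTTGAA are in capitals in the pieces of Cdc20, Ube2c, Kif11 and Mki67, and the E2F letters in those of Mcm6 and Mcm5.
Cdc20, chr4:118437344-118437408 (- strand): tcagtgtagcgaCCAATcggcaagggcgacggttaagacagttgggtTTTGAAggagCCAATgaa
Ube2c, chr2:164769808-164769917 (+ strand): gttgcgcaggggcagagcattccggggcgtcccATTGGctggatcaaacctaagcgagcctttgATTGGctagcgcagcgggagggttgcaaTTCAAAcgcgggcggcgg
Kif11, chr19:37376325-37376380 (+ strand): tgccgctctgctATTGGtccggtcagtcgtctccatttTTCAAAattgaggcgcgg
Mki67, chr7:135716460-135716579 (- strand): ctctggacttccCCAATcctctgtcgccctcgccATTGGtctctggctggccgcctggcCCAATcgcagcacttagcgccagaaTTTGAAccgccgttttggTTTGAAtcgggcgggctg
Mcm6, chr1:128359733-128359827 (- strand): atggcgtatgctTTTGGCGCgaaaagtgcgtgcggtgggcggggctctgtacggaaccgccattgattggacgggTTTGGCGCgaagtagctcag
Mcm5, chr8:75109348-75109379 (+ strand): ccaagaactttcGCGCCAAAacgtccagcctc

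Most glycolysis genes were rhythmic, with crests around midnight. Of 22 genes 16 were called, 72.7% beside 9.26% of all genes tested, 15 of them also without the 2 eyes with liver transcripts and between 14 and 17 with any single eye left out. Of these 11 peaked nearest 22 h and 3 nearest 2 h. Pfkp, a phosphofructokinase that commits glucose to the pathway, had 10276 and 11339 at 2 h, 8858 and 7979 at 6 h, 7327 and 7499.9 at 10 h, 6599 and 6445 at 14 h, 7797 and 8565 at 18 h and 11765 and 11328 at 22 h. All eyes of 22 and 2 h exceeded the rest, and those of 14 h were lowest, with an amplitude of 0.40 ± 0.03 and a peak at 0.273 ± 0.34 h (adjusted p = 4.86e-06). Pfkl, its liver-type form, peaked at 23.98 ± 0.37 h with 0.36 ± 0.04 (adjusted p = 1.89e-05). Pgk1, phosphoglycerate kinase, had 15715 and 16134 at 2 h, 14554 and 15213 at 6 h, 12192 and 11852 at 10 h, 13079 and 12454 at 14 h, 15368 and 16405 at 18 h and 18676 and 18018 at 22 h. Both eyes of 22 h were the highest and both of 10 h the lowest, with an amplitude of 0.28 ± 0.03 and a peak at 22.9 ± 0.37 h (adjusted p = 7.23e-06). Tpi1 peaked at 22.8 ± 0.41 h with 0.24 ± 0.02 (adjusted p = 2.02e-05), Gapdh at 23.999 ± 0.71 h with 0.13 ± 0.02 (adjusted p = 0.00456) and Ldha, lactate dehydrogenase, at 20.2 ± 0.59 h with 0.17 ± 0.03 (adjusted p = 0.000926). The hexokinase gene Hk1 and the isozyme Aldoc were not called (amplitudes 0.06 ± 0.02 and 0.01 ± 0.03, adjusted p = 0.215 and 0.944). Of 14 hypoxia targets 6 were called (42.9%), 5 of them also without the 2 eyes with liver transcripts and 3 without the eyes of 22 h. Of the 6, 4 had a peak nearest 22 h. Bnip3, a mitophagy receptor, peaked at 22.5 ± 0.46 h with 0.34 ± 0.04 (adjusted p = 0.00012), and Egln1, an oxygen sensor, at 21.7 ± 0.44 h with 0.30 ± 0.03 (adjusted p = 4.63e-05).

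Mitochondrial respiration, the citric acid cycle and the cytosolic ribosome gave few calls or none. None of 36 complex I genes and none of 19 genes of the citric acid cycle was called by limma's cosinor or limma voom, with 0 and 1 at an unadjusted p under 0.05, and of 37 genes of complexes II to V 1 was called, a call lost without any single one of 10 of the 12 eyes. None of 77 cytosolic ribosomal protein genes was called by either tool, 10 had an unadjusted p under 0.05, and 2 were called without SC 14 h replicate 2 and 1 without SC 18 h replicate 1. The median amplitude of the ribosomal genes was 0.05 and that of complex I 0.05, beside 0.08 for all genes with a mean scaled count of at least 100 and 0.17 for glycolysis. Of 16 targets of PPAR alpha, the fatty acid sensor that drives fat oxidation, 4 were called, all with peaks nearest 10 or 14 h, and 2 were without SC 10 h replicate 1, without the eyes of 2 h or without those of 18 h. Acadm, the medium-chain acyl-CoA dehydrogenase, had 2368 and 2229 at 2 h, 2599 and 2522 at 6 h, 3612 and 3538 at 10 h, 3873 and 3772 at 14 h, 3244 and 3084 at 18 h and 2376 and 2514 at 22 h. The eyes of 10, 14 and 18 h all exceeded the others, with an amplitude of 0.39 ± 0.03 and a peak at 13.3 ± 0.24 h (adjusted p = 6.05e-08). Cpt1a, which admits fatty acids to mitochondria, peaked at 12.5 ± 0.38 h with 0.34 ± 0.03 (adjusted p = 1.19e-05). In fatty acid and very long chain lipid synthesis 4 of 16 were called, and in xenobiotic metabolism 4 of 12 (3 of each without the 2 eyes with liver transcripts).

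Outside the neural retina, genes of several tissues were called, and no difference between the lists was tested. Over all genes tested the share called was 9.26%. Of 20 genes of the corneal stroma and sclera 5 were called, all nearest 2 h, with 6 called without the 2 eyes with liver transcripts and 9 without the eyes of 10 h. Fn1, fibronectin, had 6271 and 5559 at 2 h, 5778 and 5631 at 6 h, 4326 and 3974 at 10 h, 4088 and 4555 at 14 h, 4567 and 4232 at 18 h and 4999 and 5259 at 22 h. The 4 eyes of 2 and 6 h were the highest, with an amplitude of 0.27 ± 0.04 and a peak at 2.29 ± 0.53 h (adjusted p = 0.000469). Thbs1, thrombospondin 1, peaked at 1.35 ± 0.47 h with 0.33 ± 0.04 and Postn, periostin, at 2.80 ± 0.67 h with 0.32 ± 0.06 (adjusted p = 0.000247 and 0.00488). In the list of corneal and conjunctival epithelium 6 of 24 genes were called, but 2 when the eyes of 2 h were left out and 3 when those of 18 h, or those of 22 h, were. Krt12, the corneal keratin, peaked at 14.8 ± 0.70 h with 0.13 ± 0.02 (adjusted p = 0.00402). In the pigment epithelium list 3 of 12 were called, among them Bmp4 at 10.8 ± 0.59 h with 0.33 ± 0.05 (adjusted p = 0.000965), and Kcnj13, its potassium channel, from another list, peaked at 11.4 ± 0.42 h with 0.35 ± 0.04 (adjusted p = 3.52e-05). Of 16 genes of fluid transport in the ciliary body 4 were called, 2 without the eyes of 2 h. Aqp1, a water channel, peaked at 23.6 ± 0.65 h with 0.16 ± 0.03 (adjusted p = 0.00238). None of 16 lens crystallins and none of 22 skeletal and eye muscle genes was called by limma's cosinor or limma voom, or had an unadjusted p under 0.05, and 1 muscle gene was called without SC 22 h replicate 2. Of 15 other lens fibre genes 1 was called, a call lost without the eyes of 6 h or of 18 h. Of 24 heat shock chaperones 4 were called (16.7%, beside 11.5% of genes with a mean scaled count of at least 100), 2 without the eyes of 2 h and 2 without SC 18 h replicate 2. Hsp90aa1 peaked at 0.493 ± 0.54 h with 0.20 ± 0.03 and Hsph1, another chaperone of the list, at 13.1 ± 0.56 h with 0.26 ± 0.04, close to opposite hours (adjusted p = 0.000406 and 0.000533). The call of Hsph1 was lost in 1 fit of all 24 eyes (adjusted p = 0.166).

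Some genes had a daily shape that no cosine follows. A test of the remaining differences among the 6 times called 160 of 17879 genes (0.895%), 41 of which were also called as a cosine, and 76 without the 2 eyes with liver transcripts. SC 10 h replicate 2 alone moved the count to 67 and SC 14 h replicate 1 to 99. Per1, which light switches on directly in the brain clock, had 2093 and 2026 at 2 h, 2214 and 2021 at 6 h, 3648 and 3748 at 10 h, 2655 and 2719 at 14 h, 2631 and 2582 at 18 h and 2193 and 2429.5 at 22 h. Both eyes of 10 h, the first lit time, exceeded all others, and the eyes of 14 h were lower again (adjusted p of the departure = 0.000423). Igfbp5, a binder of insulin-like growth factors, had 30905 and 29242 at 2 h, 33111 and 31698 at 6 h, 19840 and 18575 at 10 h, 27836 and 25685 at 14 h, 23905 and 24053 at 18 h and 27655 and 28591 at 22 h. Both eyes of 10 h were the lowest (adjusted p = 3.40e-05), with no call as a cosine (adjusted p = 0.292). Sag, Pdzph1 and Adcy1 also departed, with values still high at 18 h, in the dark, and low at 22 h (adjusted p = 9.77e-05, 9.77e-05 and 0.000147). The departures of these 5 genes were called under each of the 20 other settings tried with SC eyes. Rorb, Drd4, Guca1b, Rims2 and Rgs20 departed too (adjusted p = 0.00374, 0.0106, 0.011, 0.0117 and 0.0197), under 19, 20, 20, 19 and 16 of those settings. BC027072 and Pcdh15 also departed (adjusted p = 0.00144 and 0.00138), each under all 20. Guca1a, Cpt1a and Uhrf1 departed as well, but under 14, 5 and 6 of the 20. For all these genes the fitted peak describes the shape only roughly. Fkbp5, a target of the glucocorticoid receptor, had 607 and 609 at 2 h, 644 and 804 at 6 h, 1308 and 1554 at 10 h, 926 and 859.9 at 14 h, 894 and 756 at 18 h and 842 and 742 at 22 h, high at 10 h (adjusted p = 0.011).

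Against LW, the cosine of a small set of genes differed. In 1 fit of all 24 eyes, limma's test of a different cosine under SC and LW called 32 of 18233 genes (0.176%). The test covers amplitude and peak together, and 27 of the 32 were called rhythmic under SC and 23 under both conditions. The fitted peak was earlier under SC in 31 of the 32, Ubxn11 being the exception, and in all of the 23. The median shift over the 23 was -4.95 h (SC minus LW). All shifts are in hours after midnight. They were not measured against lights on or lights off, and the length of the light period differs between SC and LW. Among SC eyes, 19 were called without the 2 eyes with liver transcripts, 85 without SC 10 h replicate 2, 19 without SC 6 h replicate 1 and 21 without either SC eye of 22 h. Among LW eyes, leaving out LW 2 h replicate 2 gave 14 and LW 18 h replicate 1 gave 20. Per2 had the smallest p. In the scaling of all 24 eyes it had 1041 and 995 at 2 h, 1378 and 1313 at 6 h, 1492 and 1649 at 10 h, 1574 and 1746 at 14 h, 1443 and 1369.7 at 18 h and 1132 and 1238 at 22 h under SC, against 1118 and 1135 at 2 h, 974 and 1008 at 6 h, 1064 and 1084 at 10 h, 1227 and 1160.5 at 14 h, 1736 and 1672 at 18 h and 1569.8 and 1594 at 22 h under LW. Under SC the high eyes were those of 10 and 14 h, and under LW those of 18 and 22 h. Its peak lay at 12.8 h under SC and 19.4 h under LW, with amplitudes of 0.33 and 0.39 (adjusted p of the difference = 1.14e-05). Nr1d1 peaked at 8.37 h under SC and 13.3 h under LW (adjusted p = 0.021), and Tef at 13.3 h under SC and 18.5 h under LW (adjusted p = 0.0104). Ciart peaked at 10.7 h under SC and 15.3 h under LW (adjusted p = 0.0354), a call that held under 20 of 32 other settings. The rhythm of Drd4 gave no call, with a peak at 23.7 h under SC and 1.15 h under LW (adjusted p = 0.556).

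None of the 24 genes in the list of corneal and conjunctival epithelium was called for an SC against LW difference by limma's test. Cldn4, a claudin of tight junctions, had 2042 and 1989.7 at 2 h, 2508 and 2038 at 6 h, 1898 and 2133 at 10 h, 1544 and 1565 at 14 h, 1353 and 1141 at 18 h and 1599 and 1703 at 22 h under SC, against 1384 and 1191 at 2 h, 1716 and 1806 at 6 h, 2126 and 2149 at 10 h, 1729.8 and 1619 at 14 h, 1575 and 1434 at 18 h and 1358 and 1304 at 22 h under LW. Its high eyes were those of 2, 6 and 10 h under SC and those of 10 h under LW. The peak lay at 5.75 h under SC and 10.5 h under LW (adjusted p = 0.00787). Spint1, a protease inhibitor of epithelia, peaked at 6.30 h under SC and 11.9 h under LW (adjusted p = 0.0131). Slc7a1, a transporter of cationic amino acids, peaked at 8.54 h under SC and 14.6 h under LW (adjusted p = 0.00272), and the mitotic kinesin gene Kif20a at 2.90 h under SC and 6.92 h under LW (adjusted p = 0.021). Genes called rhythmic under SC and, in the fit of 24 eyes, under LW numbered 755, and 685 of them peaked earlier under SC, with a median shift of -1.91 h and quartiles of -3.06 and -1.02 h. This is a description, since genes of 1 eye are not independent. By list the median shift was -4.31 h for 4 clock repressors, -2.32 h for 19 mitosis genes, -2.06 h for 8 replication genes, -1.56 h for 15 glycolysis genes and -0.989 h for 11 rod genes. It was 0.712 h for 3 cone genes, 2 of which peaked later under SC. These 2, Arr3 (0.712 h) and Opn1sw (0.960 h), had no called difference (limma adjusted p = 0.499 and 0.701). Pde6c, not called rhythmic under LW, was not among the 3. No difference between lists was tested.

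**Figure D5:**
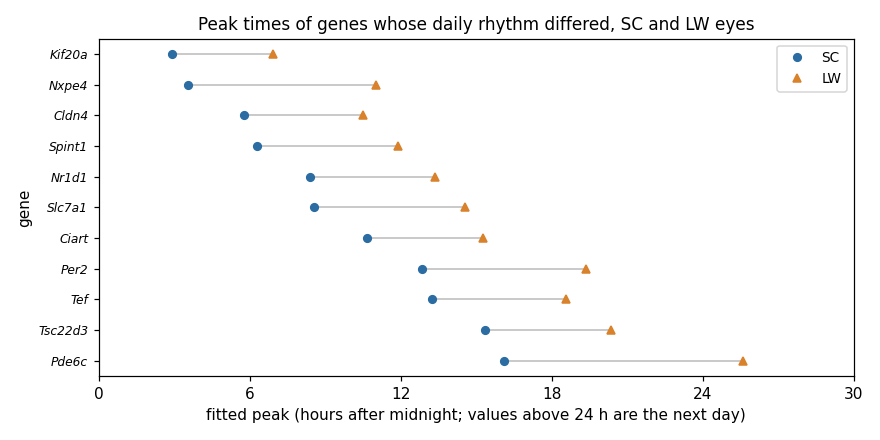
Fitted peak times (horizontal axis, hours after midnight, running past 24 h into the next day) of 11 genes named in the text that were called rhythmic under SC and whose cosine differed between SC and LW, 1 gene to a row, with SC peaks as blue circles and LW peaks as orange triangles. All 11 SC peaks stand to the left of the LW peaks. Pde6c was not called rhythmic under LW (limma adjusted p = 0.34), so its LW peak is the crest of an uncalled fit.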

How the data were processed

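RNA of whole eyes was sequenced from a stranded mRNA library on an Illumina HiSeq instrument with paired reads of 100 bases. The authors cleaned the reads with SOAPnuke, aligned them with HISAT2 2.0.4 to GRCm38.p6 and estimated expected counts per gene with RSEM (version not given in the sources used here). The deposited table gives expected counts for 19018 genes, with columns mapped to eyes by their labels. Cells holding no number (21661 in the SC columns) were read as 0, and 89.6% of SC values were whole within 1e-06. Scaling by TMM (30% and 5% trims) corrects library size but cannot correct RNA of another tissue. Genes reaching 1 scaled count in 2 or more eyes were tested on log2(scaled count + 1), a scale that understates changes of low genes, by limma 3.58.1 (R 4.3.3, trend and robust variances) with a cosine and a sine of 24 h and Benjamini-Hochberg adjustment over all genes tested. Adjusted p-values below are from limma unless another tool is named. Departures from a cosine, time means and the SC against LW difference used the same tool. The fit was also run on simulated counts with exact cosines, a fixed spread and no RNA of other tissues. That run does not test how the fit handles these eyes, where shapes and tissues differ.

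The 12 eyes were taken by their labels, but the choice of SC as the members and of the gene lists was made with earlier results of these data known. Genes named are clock genes, up to 4 members of smallest p in each list with at least 3 calls, the 20 largest amplitudes with a mean scaled count of at least 100, the 4 largest of each peak time, the 5 smallest p of the departures and of the SC against LW difference, and Drd4 and Th. Others (Guca1a, Opn1mw, Fkbp5, Ldha, Gapdh, Hk1, Aldoc, Mcm5, Wee1, Ccne1, Bub1, Krt1, Cryaa, Drd2, Spint1, Ubxn11, Gnat1, Prph2 and Rom1) were added after their values were seen. Some genes that the rule names are not reported here. Symbols were matched to RefSeq by gene ID (18891 of 19018), and promoters are RefSeq sequence. Alternatives were other scalings, pseudocounts, filters, limma voom, a replicate block and leaving out eyes or times. Same-numbered eyes of different times were checked for pairing in 15 pairs of times (correlation of deviations between -0.279 and 0.216, 4 over 0.1), and the numbers were not taken as pairs.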

Additional observations from a re-analysis of the deposited data

Results flagged for a closer look

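The 24 h rhythm differed between SC and LW for 32 genes by limma's joint test of the cosine terms, and among the genes described above the shift is given as the SC peak minus the LW peak. Among clock genes it was -6.53 h for Per2, -4.61 h for Ciart, -4.97 h for Nr1d1 and -5.29 h for Tef. It was -9.52 h for the cone gene Pde6c, whose LW amplitude was 0.12 with no rhythm called under LW (adjusted p = 0.34). It was -4.03 h for Kif20a, -5.0 h for Tsc22d3, -6.01 h for Slc7a1, -7.48 h for Nxpe4 and -4.76 h for Cldn4. The call held under all 32 other settings for Per2, Nr1d1, Tef, Slc7a1, Nxpe4 and Cldn4, and under 29 for Tsc22d3, 28 for Kif20a, 20 for Ciart and 8 for Pde6c.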

How the results depend on the processing

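The 1655 rhythmic genes became 932, 974 and 954 when both eyes of 2, 18 and 22 h were left out in turn, and between 1197 and 1754 with any single eye left out. Other scalings, pseudocounts, filters, limma voom and 1 fit of 24 eyes gave between 1283 and 1745. The 1812 genes that differed by time of day became 1398 to 1879 with single eyes left out. The 160 departures from a cosine became 68 with no filter on low counts, 76 without the 2 eyes with liver transcripts, and between 67 (without SC 10 h replicate 2) and 237 (without SC 10 h replicate 1). The 32 rhythm differences became 19 without the 2 eyes with liver transcripts, and between 14 (without LW 2 h replicate 2) and 85 (without SC 10 h replicate 2). The cause of these moves was not tested. With the replicate block the counts were 1431, 1622, 115 and 27, in the order above. Over the named genes 4783 settings kept the side of the threshold, 366 lost a call and 28 gained one. The edgeR and DESeq2 tests planned were not run. With 2 eyes a time, the smallest amplitude called was 0.084.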
